A study of Homo sapiens with 19 samples.

Results

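The promoters described here carried H3K4me3 but no H3K27ac in leukaemia cells given only the vehicle DMSO. A promoter was the window from 1000 bp before to 1000 bp after the transcription start site (TSS) of a protein-coding gene in GENCODE release 44 on hg38. Members were chosen by their DMSO peaks: an H3K4me3 peak touched the window in both DMSO lists and no H3K27ac peak touched it in either DMSO list. Of 20007 promoters, 2392 were members, or 25.7% of the 9290 promoters with H3K4me3 in both DMSO lists. Another 4856 promoters had both marks in both DMSO lists, 2042 had H3K4me3 with H3K27ac in 1 DMSO list, and 10038 had neither mark. Because some windows overlap, the 2392 members form 2127 separate groups, and 521 members share a group with 1 or 2 others.

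The study profiled MOLM-13 cells, an established monocytic line of acute myeloid leukaemia, by CUT&RUN, in which an antibody directs a nuclease to cut out the chromatin that carries a mark. Each of the 3 marks, H3K27ac, H3K4me2 and H3K4me3, was profiled in 2 Corin-treated and 2 vehicle-treated (DMSO) libraries, which makes 12 of the 19 libraries in the series. Treatment lasted 24 h. The labels write 0.1 µM for both treatments, which for DMSO has no clear meaning. All values come from 1 cell line, and the labels do not say whether replicates were separate cultures, so p-values measure only the spread between these libraries, which may be technical. The 7 other libraries (combined treatment with all-trans retinoic acid, LSD1 and IgG) were not analysed here.

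H3K4me3 is placed at CpG-rich start sites by methyltransferases of the SET1 and MLL families, and it can be present whether a gene is strongly transcribed, weakly transcribed or poised. H3K27ac is written by the acetyltransferases p300 and CBP, is erased by histone deacetylases and marks active promoters and enhancers. CoREST is a scaffold that holds the demethylase LSD1, which acts on mono- and dimethylated H3K4 but not on H3K4me3, together with a class I histone deacetylase. Corin is a hybrid compound that blocks both enzymes of that complex. In principle it can therefore act on acetylation and on H3K4me2, and the comparison asks what appears after Corin at start sites that already carried H3K4me3 but lacked called acetylation.

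The sequences below are the 150 bases just before the start sites of 7 members that the results turn on, printed 5′ to 3′ on the strand of the gene from RefSeq (GRCh38.p14). They overlap no annotated exon. Capitals mark matches to any of 13 searched motifs, on either strand. The first 4 are among the 15 members with the most H3K27ac after Corin, by the mean of the Corin lists, and have a printable stretch: TLNRD1 (chr15:81000773-81000922, plus strand), OSBPL11 (chr3:125595498-125595647, minus strand), B4GALT7 (chr5:177599982-177600131, plus strand) and IQGAP2 (chr5:76403135-76403284, plus strand).
TLNRD1: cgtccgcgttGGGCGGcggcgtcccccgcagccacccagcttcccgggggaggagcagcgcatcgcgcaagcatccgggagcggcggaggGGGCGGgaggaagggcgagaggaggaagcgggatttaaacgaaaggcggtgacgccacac
OSBPL11: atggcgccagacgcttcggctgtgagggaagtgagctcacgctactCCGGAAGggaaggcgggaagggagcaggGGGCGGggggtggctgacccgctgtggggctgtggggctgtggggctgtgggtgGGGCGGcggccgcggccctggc
B4GALT7: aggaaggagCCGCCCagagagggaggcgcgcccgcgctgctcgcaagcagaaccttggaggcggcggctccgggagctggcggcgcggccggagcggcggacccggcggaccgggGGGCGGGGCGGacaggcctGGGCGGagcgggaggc
IQGAP2: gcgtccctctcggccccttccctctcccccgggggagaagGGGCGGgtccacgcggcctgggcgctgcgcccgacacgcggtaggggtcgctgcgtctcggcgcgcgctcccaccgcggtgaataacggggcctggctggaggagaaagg

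The next sequence is that of a member with one of the widest H3K4me3 peaks and no H3K27ac in any of the 4 lists, HES7 (chr17:8124107-8124256, minus strand). The last pair are members whose H3K4me2 was higher in both Corin lists, with the largest differences between group means. They are ZNF699 (chr19:9309839-9309988, minus strand) and GPR3 (chr1:27392472-27392621, plus strand).
HES7: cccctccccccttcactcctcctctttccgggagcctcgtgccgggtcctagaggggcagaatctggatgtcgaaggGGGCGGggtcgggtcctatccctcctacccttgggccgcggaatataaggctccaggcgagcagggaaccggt
ZNF699: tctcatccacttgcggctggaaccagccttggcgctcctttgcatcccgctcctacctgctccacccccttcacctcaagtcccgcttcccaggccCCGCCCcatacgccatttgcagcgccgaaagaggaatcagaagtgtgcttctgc
GPR3: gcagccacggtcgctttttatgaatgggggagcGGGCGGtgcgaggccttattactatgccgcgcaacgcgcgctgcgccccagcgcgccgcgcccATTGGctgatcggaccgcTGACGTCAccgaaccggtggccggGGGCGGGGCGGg

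The SP1/KLF box, GGGCGG on one strand or the other, occurs in each of the 7. B4GALT7 has 4 matches, some of which overlap, at a GC content of 80.7%, and ZNF699 has 1 at 61.3%. OSBPL11 also holds an ETS site (CCGGAAG). GPR3 holds the CREB site TGACGTCA, a palindrome that matches on both strands, and an NFY box.

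RefSeq promoter sequences, from 250 bases before to 50 after the start, were matched by symbol for 1914 of the 2392 members and for 15345 of all promoters. Median GC content was 68.3% in members, 64.7% in promoters with both marks, 58.7% in promoters with neither mark and 63.0% over all. The ratio of observed to expected CpG had a median of 0.859 in members, 0.875 with both marks and 0.482 with neither. Members are thus CpG-rich promoters like those with both marks, with somewhat more G and C. The SP1/KLF box was found in 78.5% of members, against 70.6% with both marks and 59.2% over all. The ETS site was found in 17.2% of members against 25.8% with both marks and 14.4% over all, and the YY1 site in 2.09% against 4.68% and 1.97%. The TATA box (TATAAA) was found in 3.97% of members, 5.12% of promoters with both marks and 9.63% over all, and the NFY box (CCAAT) in 37.1%, 37.3% and 36.6%.

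Exact matches to sites of myeloid and haematopoietic factors were few, and the GFI1 site was not rarer in members than over all promoters. The PU.1 site GAGGAAGT, which shares the letters GGAAG with the ETS site, occurred in 1.62% of members against 2.52% over all, the GATA site (AGATAA) in 3.34% against 7.46%, and the GFI1 site AATCACNGC in 1.36% against 1.06%. The remaining shares, members first and all promoters after, were 3.71% and 5.74% for the AP-1 site (TGANTCA), 10.7% and 8.89% for the E-box (CACGTG), and 2.82% and 2.64% for the CREB site. They were 3.13% and 1.72% for the NRF1 site and 2.04% and 3.18% for the interferon response-like site. Each is a match of letters only, counted on both strands in 300 bases, and the sets compared differ in GC content.

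The files hold peaks and scores but no reads, so depth is unknown beyond the minimum that the labels give. List length differed with treatment: for H3K27ac, the Corin lists held 34424 and 30029 peaks and those of DMSO 17599 and 19995. The H3K4me2 lists held 41152 and 40042 against 30896 and 32299, and the H3K4me3 lists 11757 and 11883 against 11104 and 11343. Of 11 marker genes of MOLM-13, 7 had H3K4me3 in both DMSO lists, among them CD33, SPI1 and FLT3, while CSF1R and CD86 had neither mark at the annotated start. None of 17 markers of 6 other cell types had H3K4me3 in both DMSO lists. MEIS1, a homeobox gene of leukaemic stem cell programmes and one of the 11, is a member.

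H3K27ac was absent from members in DMSO by the rule, so its counts after Corin are a description with no test. An H3K27ac peak touched 933 members (39.0%) in the first Corin list and 801 (33.5%) in the second. It touched 530 (22.2%) in both, 674 in 1 of them and 1188 in neither. Over all protein-coding promoters, 3.06% had H3K27ac in both Corin lists and neither DMSO list, and among the 10038 promoters with neither mark 76 did (0.757%). Only promoters with no H3K27ac in either DMSO list could show this pattern. It was seen at 613 of 12781 such promoters (4.8%), and 530 of the 613 are members. The opposite pattern, H3K27ac in both DMSO lists and neither Corin list, occurred at 0.035% of all promoters. Counted by length, H3K27ac was longer in both Corin lists at 19.4% of all promoters and shorter at 0.405%, and by the rule the members could only lengthen.

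The count of members with H3K27ac depended on how the lists were cut. With every H3K27ac list cut to its 17599 highest-scoring peaks and the other marks cut likewise, the rule found 2533 members, and 160 of them (6.32%) had H3K27ac in both Corin lists. For the 2392 members as first found, the cut lists left 130 (5.43%). At a score of at least 100 in every list, the rule found 3817 members, and 865 of them (22.7%) had H3K27ac in both Corin lists. At the matched number the mirror image of the rule, H3K4me3 in both Corin lists with H3K27ac in neither, found 2483 promoters, and 142 of these (5.72%) had H3K27ac in both DMSO lists. With all peaks, the mirror rule found 1379 promoters, of which 6 (0.435%) had H3K27ac in both DMSO lists. Gain after Corin thus exceeded its mirror image with all peaks and was nearly equal to it at a matched number. In peak lists, more acetylation and more peaks called in a library cannot be told apart.

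The DMSO lists also differed from each other. Of the 3900 promoters with H3K4me3 that lacked H3K27ac in the first DMSO list, 38.7% had it in the second, 56.2% in the first Corin list and 55.5% in the second. Of the 2926 that lacked it in the second DMSO list, 18.3% had it in the first, 48.9% in the first Corin list and 41.0% in the second. With all peaks both Corin lists lay above the DMSO replicate. At a matched number the corresponding shares were 34.7%, 27.2% and 33.9%, then 22.0%, 25.6% and 22.7%, so neither starting list showed a Corin excess of the size seen with all peaks.

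**Figure D1:**
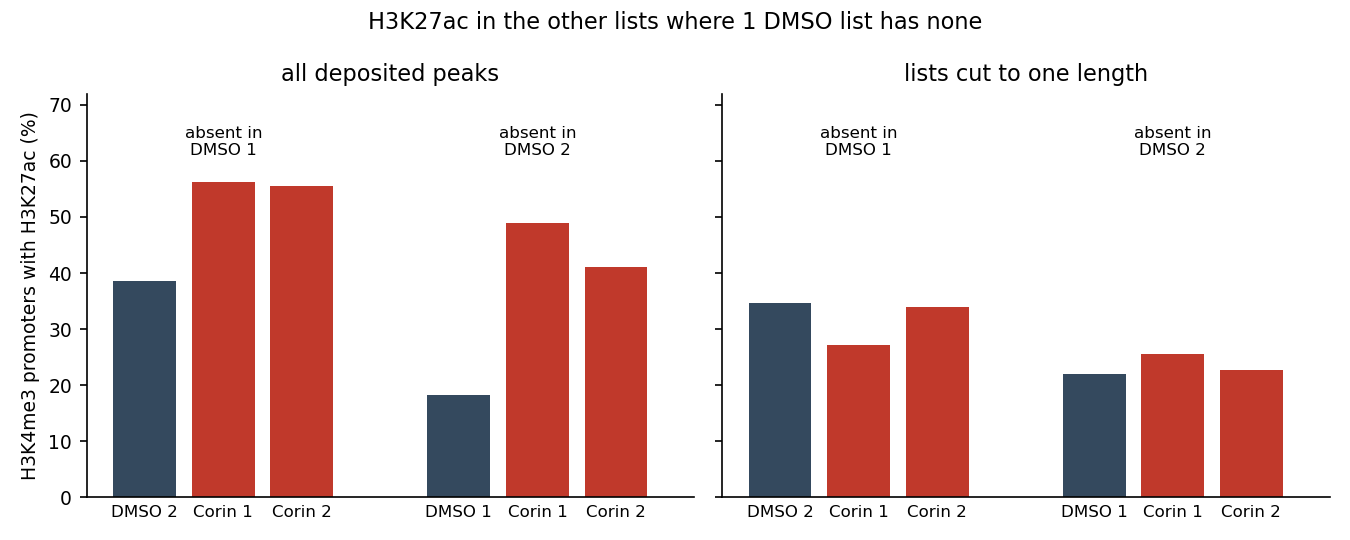
Percent of promoters with H3K4me3 in both DMSO lists that lacked H3K27ac in one DMSO list and had it in each other list, with all peaks and with lists cut to the same number of top-scoring peaks. With all peaks the Corin lists reach 41.0% to 56.2% against 38.7% and 18.3% in the DMSO replicate, and at a matched number the Corin values lie between 22.7% and 33.9%.

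The H3K27ac peaks called at members after Corin were narrow and of low rank within their lists. Among the 530 members with H3K27ac in both Corin lists, the acetylated length within the window, averaged over the Corin lists, ran from 72 to 1546 bp with a median of 476.5 bp. It reached 1000 bp in both lists at 6 members and 500 bp in both at 121. Over all 933 and 801 members with a peak in the 2 Corin lists, median widths were 418 and 371 bp. These peaks ranked at the 38.8th and 36.6th percentile of score within the list. For the 530 the widths were 492 and 418 bp, at the 44.8th and 38.2nd percentile. In the same lists, peaks at promoters with both marks had medians of 1243 and 1043 bp and lay at the 83.3rd and 81.7th percentile. Promoters with H3K27ac in 1 DMSO list fell between, at 629 and 570 bp and the 57.4th and 55.6th percentile. The classes were set by H3K27ac in DMSO, so this order is tied to the rule and is a description only.

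The H3K27ac peaks called at members after Corin lay mainly downstream of the start. In the first Corin list, 637 of 933 members with a peak (68.3%) had more acetylated length after the start than before it, with means of 311 and 164 bp. In the second the count was 578 of 801 (72.2%), with 290 and 137 bp. The start itself was covered at 269 members (28.8%) and 206 (25.7%). Over all members, the share under an H3K27ac peak was highest 200 bp after the start, at 19.3% and 17.0%, and was 11.2% and 8.61% at the start itself. This layout was not particular to members or to Corin. At promoters with both marks the share was also highest 200 bp after the start in the Corin lists, at 83.4% and 80.6%. In the DMSO lists it was highest there at 300 bp (60.2%) and 200 bp (70.4%) after the start. A Corin peak that touched the window overlapped a DMSO peak lying outside it at 48 members in the first list (5.14%) and 32 in the second. The rule keeps DMSO peaks out of the window, and 154 members had one within 2000 bp of the start.

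**Figure D2:**
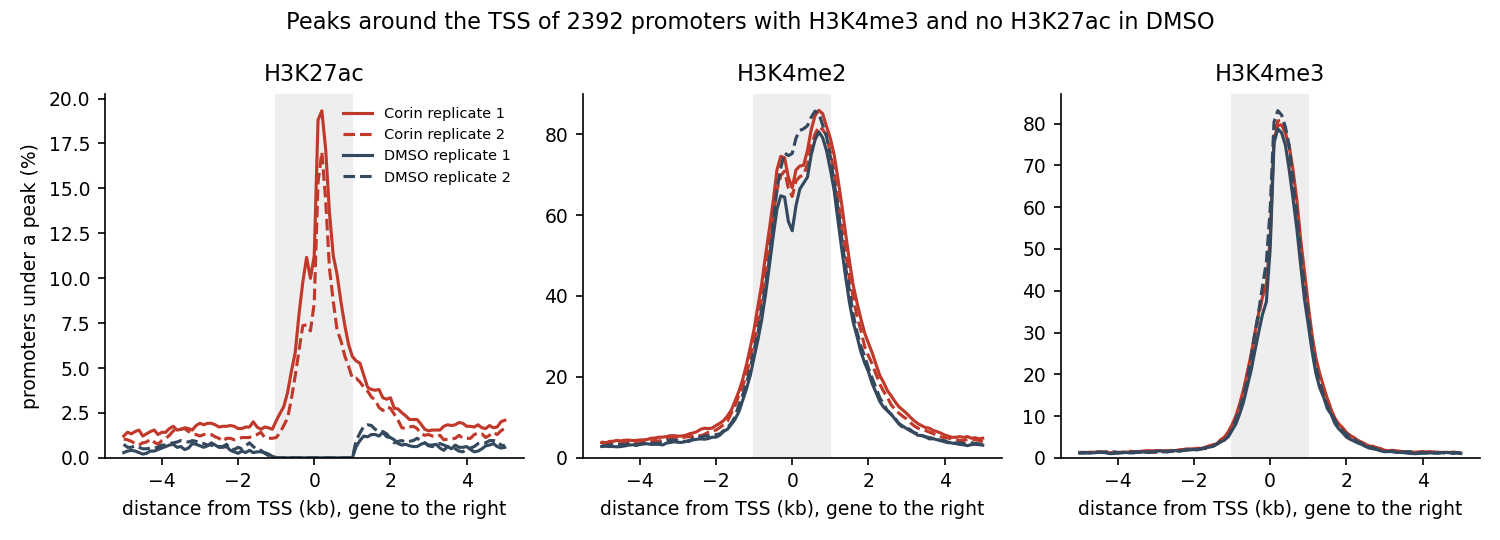
Percent of the 2392 members under a peak by distance from the start site (bp, positive downstream) for the 3 marks, 1 line per library. Corin H3K27ac reaches 19.3% and 17.0% at 200 bp downstream, and the 4 lines of H3K4me3 run close together. The H3K4me2 lines at the start itself run from 56.1% to 75.2%, both of them DMSO libraries, and at 1500 bp downstream Corin gives 48.7% and 44.3% against 38.5% and 41.5% in DMSO.

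The 15 members with the most acetylated length after Corin include regulators, receptors and enzymes of several kinds. At TLNRD1, which encodes an actin-bundling protein related to talin (chromosome 15, TSS 81000923), H3K27ac covered 1658 and 1434 bp in the Corin lists and none in DMSO. ATF1, a transcription factor of the CREB family (chromosome 12, TSS 50763710), had 1361 and 1328 bp. SIDT2, a lysosomal membrane protein (chromosome 11, TSS 117178736), had 1084 and 1381 bp. H3K4me3 overlapped between the groups at ATF1 (1812, 1731, 1841 and 1780 bp, Corin, then DMSO) and at SIDT2. At TLNRD1 it was slightly shorter in both Corin lists, at 1809 and 1725 bp against 1886 and 1893 bp.

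OSBPL11, a member of the oxysterol-binding protein family (chromosome 3, TSS 125595497), had 1308 and 1437 bp of H3K27ac. Here H3K4me3 was also longer after Corin, at 1520 and 1095 bp against 614 and 683 bp, with no overlap between the groups, while H3K4me2 overlapped. At IQGAP2, a scaffold protein gene, H3K27ac covered 1753 bp in the first Corin list and 426 bp in the second, the widest disagreement among the 15. H3K4me2 covered the IQGAP2 window fully in all 4 lists, and H3K4me3 was longer after Corin, at 2001 and 1400 bp against 1308 and 1311 bp. Among the 15, H3K4me3 was also longer in both Corin lists at UBALD1 and INSR, and shorter at TLNRD1 and B4GALT7.

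Among the others, the AP-1 subunit FOSL2 had 1385 and 737 bp and the quinone reductase NQO1 1311 and 839 bp. The insulin receptor gene INSR had 1203 and 855 bp. The cytokine gene MIF had 1162 and 915 bp, and the RNA-binding protein gene IGF2BP3, known as an oncofetal gene, 1252 and 843 bp. B4GALT7, a galactosyltransferase that builds the glycosaminoglycan linker, had 1241 and 1027 bp, and the methionine salvage gene APIP, which shares its window with PDHX, 1423 and 1028 bp. HOMER3, a postsynaptic scaffold gene, had 934 and 1245 bp, the kinase gene PDIK1L 874 and 1162 bp, and UBALD1 1232 and 935 bp. The first Corin list was the higher at 11 of the 15. With lists cut to a matched number, and likewise at a score of at least 100, no H3K27ac was left at MIF, and the mean over the Corin lists went from 1225.5 to 514 bp at APIP, from 1029 to 587 bp at INSR and from 1018 to 437 bp at PDIK1L. At the matched number that at IQGAP2 went from 1089.5 to 594.5 bp. In a window of 500 bp either side IGF2BP3 had 187.5 bp in place of 1047.5 bp and INSR 443.5 bp, so most of their acetylation lay farther from the start. The nearest DMSO H3K27ac peak was 1224 bp from the start at IGF2BP3 and 1246 bp at UBALD1.

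**Figure D3:**
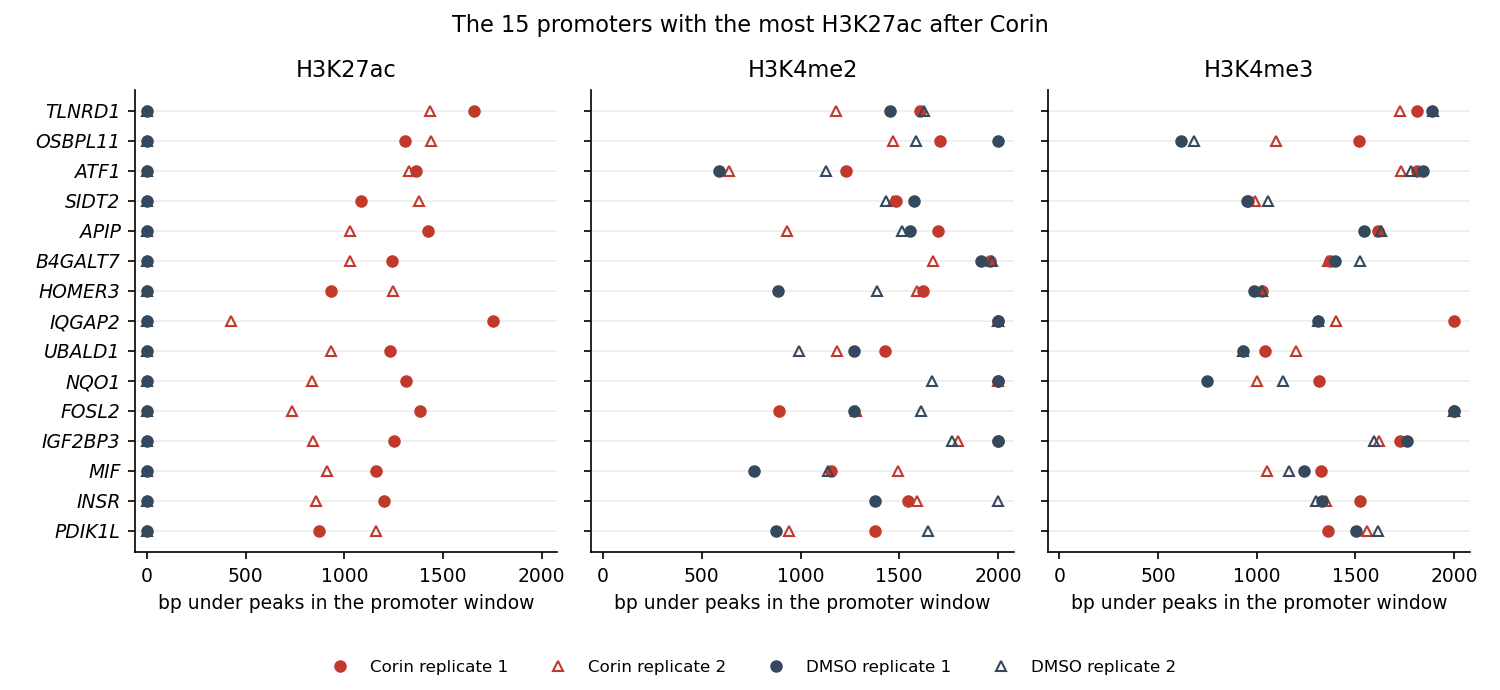
Bases under peaks in the window at the 15 members with the most H3K27ac after Corin, for H3K27ac, H3K4me2 and H3K4me3, with each point 1 library. H3K27ac is 0 in both DMSO lists by the rule and 426 to 1753 bp after Corin, and H3K4me3 groups stand well apart at OSBPL11.

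The share of members with H3K27ac after Corin was higher where DMSO cells had more H3K4me3. H3K27ac was in both Corin lists at 33 of 406 members with under 500 bp of H3K4me3 (8.13%), 204 of 1114 from there to under 1000 bp (18.3%), 201 of 678 from there to under 1500 bp (29.6%) and 92 of 194 with 1500 bp or more (47.4%). Each Corin list showed the same order alone, from 19.2% to 67.0% in the first and from 18.7% to 55.2% in the second. The H3K4me2 of DMSO cells showed no such order, at 19.4%, 25.5%, 20.2% and 22.8% over the same 4 ranges. Distance to the nearest DMSO H3K27ac peak, a median of 31763.5 bp over all members, went with the share at the short end. It was 40.9% of 154 members with such a peak within 2000 bp, 27.5% of 142 from there to 5000 bp, and 18.9% to 22.0% of the 3 more distant ranges. These are descriptions, since DMSO peaks chose the members, and members of 1 group of overlapping windows share their peaks.

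**Figure D4:**
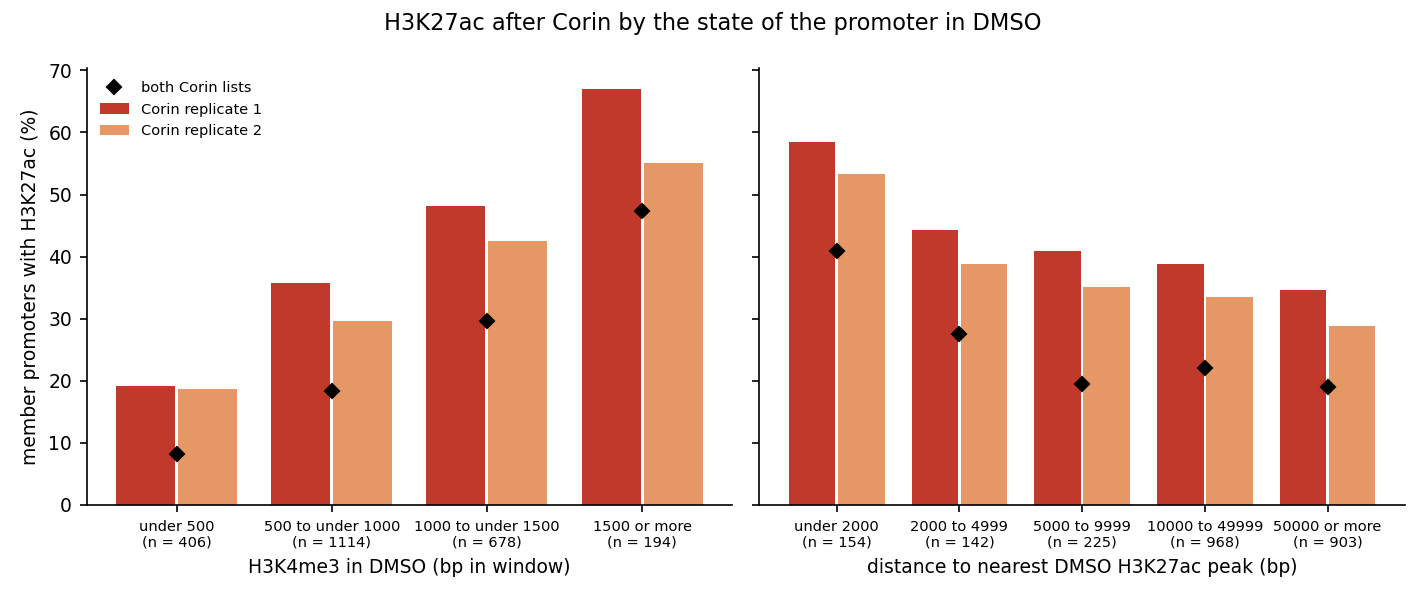
Percent of members with H3K27ac in each Corin list and in both, by length of H3K4me3 in DMSO (left) and distance to the nearest DMSO H3K27ac peak (right). The share in both lists goes from 8.13% to 47.4% across the H3K4me3 ranges and from 40.9% to 18.9% from the nearest to the farthest range.

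Wide H3K4me3 did not always come with H3K27ac in the window. Width here is that of the whole H3K4me3 peak, which can reach beyond the window. Of the members with no H3K27ac in any of the 4 lists, the 5 with the widest H3K4me3 peaks were MEIS1, HES7, BCL2L11, ADCY9 and IRF8. MEIS1 had 1673 and 1650 bp of H3K4me3 after Corin and 1575 and 1673 bp after DMSO, with a DMSO H3K27ac peak 1784 bp from the start. BCL2L11, which encodes the pro-apoptotic protein BIM, had 2001, 1844, 1802 and 1762 bp in the same order, with a DMSO H3K27ac peak 1042 bp away, so its acetylation lies just beyond the window. HES7, a Notch-pathway repressor of the segmentation clock, had 2001, 1747, 2001 and 1421 bp, and the nearest DMSO H3K27ac peak was 27398 bp away. ADCY9, an adenylyl cyclase gene, had 1459, 1601, 1451 and 1538 bp. IRF8, a factor of monocyte and dendritic cell development, had 2001, 1777, 1793 and 1829 bp, with the nearest DMSO H3K27ac 20129 bp off. H3K4me2 covered the whole window in all 4 lists at MEIS1, HES7 and BCL2L11.

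H3K4me2 was not used by the rule and could be tested. It was already at almost all members in DMSO: 2328 of 2392 had it in both DMSO lists and 14 in neither. Its mean length in the window was 1374 and 1301 bp in the Corin lists and 1215 and 1373 bp in the DMSO lists. The log2 ratio was 0.05 (SD 0.14, n = 2 and 2; exact two-sided permutation p = 0.667), smaller than the spread between replicates, and it was 0.18 within the first replicate number and -0.08 within the second. With 2 libraries against 2 the smallest possible p is 0.333, so no such test can pass 0.05. Promoters with both marks had 1278 and 1181 bp in the Corin lists and 1192 and 1370 bp in the DMSO lists, a log2 ratio of -0.06 (SD 0.16; exact permutation p = 0.667).

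The difference between these classes was steadier than either ratio. The log2 ratio at members exceeded that at promoters with both marks by 0.11 (SD 0.031, n = 2 and 2; exact two-sided permutation p = 0.333, the smallest possible), and by 0.08 and 0.14 within the replicate numbers. Counted promoter by promoter, H3K4me2 was longer in both Corin lists than in both DMSO lists at 482 members (20.2%) and shorter at 176 (7.36%). In windows of 500 bp either side that balance was nearly even, with 250 longer (9.89%) and 220 shorter (8.7%) of 2529 members. It also changed with single libraries. Without DMSO replicate 1, which also changes the members to 3202, H3K4me2 was longer at 877 (27.4%) and shorter at 987 (30.8%). Without Corin replicate 1, on the same 2392 members, it was longer at 694 (29.0%) and shorter at 622 (26.0%). Without DMSO replicate 2 the counts were 2111 and 571 of 3982 members, and without Corin replicate 2 they were 996 and 330. Over all protein-coding promoters the shares were 11.5% and 6.45%, and over the promoters with an H3K4me2 peak in any list 18.8% and 10.5%. The members' share of longer windows is thus near that of other H3K4me2 promoters. At promoters with both marks the balance was the other way, with 532 longer (11.0%) and 783 shorter (16.1%). The median difference was 30.5 bp at members, -29 bp at promoters with both marks and 0 over all promoters.

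By acetylation after Corin, H3K4me2 was longer in both Corin lists at 109 of the 530 members with H3K27ac in both lists (20.6%), 128 of the 674 with it in 1 (19.0%) and 245 of the 1188 with it in neither (20.6%). It was shorter at 41 (7.74%), 73 (10.8%) and 62 (5.22%). The differences between these groups were not tested. The log2 ratios were 0.03, 0.03 and 0.06. Split by H3K4me3 in DMSO, H3K4me2 was longer after Corin at 24.9%, 23.8%, 15.9% and 4.12% of members from the shortest to the longest of the 4 ranges above, and shorter at 4.93%, 7.18%, 7.52% and 12.9%. The window was already full in all 4 lists at 107 members, which could not lengthen. H3K4me2 appeared in both Corin lists and neither DMSO list at 0 members, against 0.48% of all promoters and 0.0323% of those with H3K4me3 in both DMSO lists. Since 14 members lacked it in both DMSO lists, few could gain it. It was lost at 1 member, DUSP11, against 0.05% of all promoters.

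**Figure D5:**
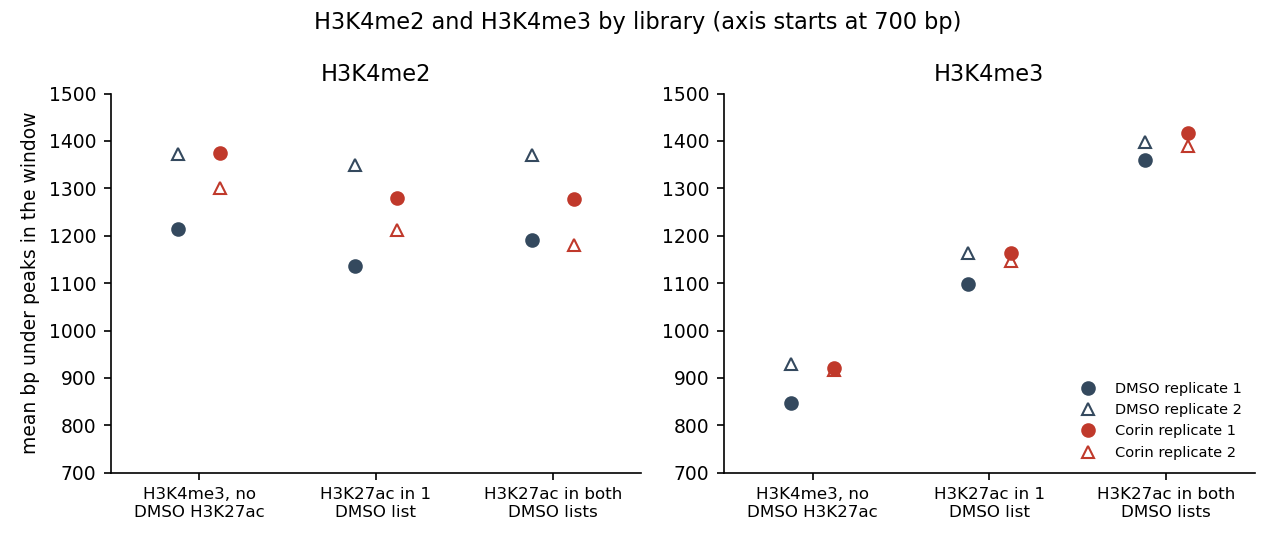
Mean bases under H3K4me2 and H3K4me3 peaks in the promoter window (axis from 700 bp), 1 point per library, in members, promoters with H3K27ac in 1 DMSO list and promoters with both marks. The Corin and DMSO points of H3K4me2 at members (1215 to 1374 bp) overlap, and H3K4me3 at members (846 to 929 bp) lies below that of the other classes in all 4 libraries.

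Named by the size of the H3K4me2 difference, 8 members lay highest. The zinc finger gene ZNF699 had 1475 and 1209 bp after Corin against 0 and 515 bp after DMSO, and ZNF784 had 1753 and 1681 bp against 679 and 915 bp. The receptor gene GPR3, whose product signals through Gs without a ligand, had 1976 and 1807 bp against 387 and 1486 bp. RRAGB, a Rag GTPase that relays amino acid supply to mTORC1, had 1025 and 1354 bp against 216 and 521 bp. None of these 4 had H3K27ac in any list.

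The lysosomal cation channel gene TPCN2 had 2001 and 1734 bp against 538 and 1394 bp, and 848 and 196 bp of H3K27ac after Corin. The kinase gene NLK had 1708 and 1513 bp against 521 and 1107 bp, with 303 and 704 bp of H3K27ac. FKBP8, an immunophilin of the mitochondrial outer membrane, had 2001 and 1374 bp against 570 and 1226 bp, with 501 and 508 bp of H3K27ac. The ubiquitin ligase gene RNF185 had 1717 and 1765 bp against 1295 and 619 bp, with H3K27ac in the first Corin list alone. The 8 were picked among members whose groups do not overlap, and their DMSO libraries also lay apart from each other, most at GPR3 and TPCN2. With lists cut to a matched number, and likewise at a score of at least 100, the difference at RRAGB went from 821 to 144 bp, and at the latter threshold that at NLK went from 796.5 to 1350 bp. Without DMSO replicate 1 the difference was 405.5 bp at GPR3 in place of 955 bp, 473.5 at TPCN2 in place of 901.5, 503.5 at NLK and 461.5 at FKBP8 in place of 789.5. Without DMSO replicate 2 it was 1504.5 bp at GPR3 and 446 bp at RNF185 in place of 784, and without Corin replicate 1 it was 476 bp at FKBP8.

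The 4 largest differences in the other direction were at NUBP2, AP1AR, NFS1 and ZNF275. NUBP2, which acts in cytosolic iron-sulfur protein assembly, had 822 and 444 bp of H3K4me2 after Corin against 1437 and 1768 bp after DMSO. The cysteine desulfurase gene NFS1, which shares its window with ROMO1, had 1054 and 1083 bp against 1399 and 2001 bp. AP1AR, an adaptor-complex regulator, had 1095 and 497 bp against 1755 and 1772 bp. These 3 had H3K27ac in both Corin lists, at 573 and 438 bp, 826 and 359 bp, and 953 and 230 bp in that order. ZNF275, with 766 and 302 bp against 1265 and 1022 bp, had none. At a score of at least 100 the difference at ZNF275 turned to 304.5 bp longer after Corin, and that at AP1AR went from -967.5 to -543 bp. That at NFS1 went from -631.5 to -979 bp at that score and at a matched number, and to -330.5 bp without DMSO replicate 2. Without Corin replicate 2, that at ZNF275 went from -609.5 to -377.5 bp.

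Just outside the promoter window, from 1000 to 2000 bp on either side of the start, H3K4me2 was longer after Corin at more members, a range chosen after the data were seen. The mean length was 671 and 615 bp in the Corin lists and 534 and 564 bp in the DMSO lists, a log2 ratio of 0.23 (n = 2 and 2; exact two-sided permutation p = 0.333, the smallest possible). It was longer in both Corin lists at 746 members (31.2%) and shorter at 91, against 18% and 2.28% of all promoters in the same directions. Promoters with both marks gave 30.6% and 4.82%, with 1044 and 940 bp against 899 and 902 bp, so the flanks of members did not stand out by count. With lists cut to the matched number the log2 ratio at members was 0.19, and 29.3% were longer.

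H3K4me3 itself, which helped choose the members, was still called at nearly all of them after Corin. A peak remained at 97.5% and 97.8% of members in the Corin lists and at 2298 in both. The mean length was 921 and 916 bp in the Corin lists and 846 and 929 bp in the DMSO lists, which gives a ratio of 0.05 on the log2 scale (SD 0.095), not tested. It was longer in both Corin lists at 478 members (20%, against 9.18% of all promoters) and shorter at 263 (11%, against 4.66%). Among the 9290 promoters with H3K4me3 in both DMSO lists the shares were 18.2% and 10.0%, and among those with both marks 17.5% and 9.53%, close to those of members. At 18 members (0.753%, against 0.1% of all promoters and 0.215% of those with H3K4me3 in both DMSO lists) no H3K4me3 peak was left in either Corin list, while the reverse, which the rule excludes from members, was seen at 0.36% of all promoters. These were weakly marked in DMSO, with a median of 322.25 bp, and 17 of the 18 had no H3K27ac after Corin. In DMSO, the H3K4me3 peaks of members had median widths of 890 and 997 bp, against 1663 and 1724.5 bp at promoters with both marks, and lay at the 33.9th and 36.1st percentile of score against the 75.4th and 75.3rd.

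The makeup of the members was uneven across gene groups. Zinc finger genes gave 93 members of the 288 with H3K4me3 in both DMSO lists (32.3%), solute carriers 44 of 140 (31.4%), cilium genes 15 of 33 (45.5%), developmental transcription factors 14 of 34 (41.2%) and receptors for interleukins, chemokines and TNF ligands 7 of 18 (38.9%). Housekeeping groups had lower shares: 8 of 74 mitochondrial ribosome genes (10.8%), 2 of 33 aminoacyl-tRNA synthetase genes (6.06%) and 2 of 47 replication-dependent histone genes (4.26%). DNA repair genes gave 8 of 47 (17.0%), interferon-stimulated genes 4 of 11, myeloid maturation genes 3 of 14 and CoREST complex genes 1 of 9. Neuronal genes gave 2 of 2 and clustered protocadherins 1 of 1. The share over all genes was 25.7%.

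After Corin, H3K27ac was in both lists at 18 of the 93 zinc finger members, 7 of the 44 solute carriers, 2 of the 15 cilium genes and 2 of the 14 developmental factors, set beside 22.2% of all members. Some smaller groups had higher shares: 3 of 8 mitochondrial ribosome genes, 2 of 7 receptors and 2 of 8 DNA repair genes. The neuronal and histone groups gave 1 of 2 each. ZNF503, a zinc finger repressor gene, had 1126 and 769 bp and ZNF555 896 and 416 bp. HOXA3 had 1139 and 780 bp and IRX5 825 and 412 bp, the 2 homeobox genes of the developmental group with acetylation in both lists, while 10 of the 14, such as GATA2, had none. IFT20, an intraflagellar transport gene whose window is shared with TNFAIP1, had 968 and 490 bp, and the transition zone gene TMEM107 516 and 798 bp. SLC16A5, of the monocarboxylate transporter family, had 838 and 630 bp, and SLC35A3, a nucleotide sugar transporter gene, 737 and 277 bp.

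In the receptor group, IL10RB, a subunit of the interleukin 10 receptor, had 875 and 1106 bp, and TNFRSF8, which encodes CD30, 259 and 264 bp. The DNA repair gene PARP1 had 475 and 542 bp, and FANCF, of the Fanconi anaemia pathway and with a window shared with GAS2, 834 bp in the first Corin list alone. Of the mitochondrial ribosome genes, MRPL39 had 385 and 567 bp and MRPL16 353 and 459 bp. The neuronal gene STMN3, whose window is shared with RTEL1, had 957 and 561 bp, and the neurofilament gene NEFH had none. The histone genes H2BC26 and H2AC25 share their window, with 28 and 393 bp at the former.

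The interferon-stimulated and myeloid groups held 4 and 3 members, too few to set against the 22.2% of all members, and 0 of either had H3K27ac in both Corin lists. STAT2, a transducer of interferon signals, had 543 bp and TLR2, a receptor for bacterial lipoproteins, 343 bp, both in the first Corin list alone, and CMPK2, which shares its window with RSAD2, and IRF8 had none. HMG20B, a subunit of CoREST complexes and the single member among their genes, with a window shared with MFSD12, had 408 bp in the first list alone. AARS2 had 201 bp in the second list alone, and SARS1 and PCDHGC3 had none. The zinc finger promoters matched in RefSeq had the ETS site in 39.8%, against 17.2% of all members matched.

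The members closest to the edge of the rule were KDM5B, HRAS and TBPL1, whose nearest DMSO H3K27ac lay 1002, 1003 and 1005 bp from the start. The H3K4me3 demethylase gene KDM5B had 116 and 308 bp of H3K27ac after Corin, HRAS, next to LRRC56, 830 and 750 bp and TBPL1 none. The promoters closest on the other side were CRYM and MRPS27, left out for 2 and 5 bp of H3K27ac in the first DMSO list, and VLDLR, left out for 8 bp in the second. MRPS27 had 82 and 73 bp after Corin, VLDLR 306 bp in the first list, and CRYM none.

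Members lay on each chromosome from 1 to 22, X and Y. As a share of promoters with H3K4me3 they were most frequent on chromosomes 21 (33 members, 38.8%), X (94, 36.3%), 16 (159, 34.8%) and 22 (78, 34.5%), and least on chromosome 6 (77, 14.9%). A second coding start within 1000 bp lay beside 479 members (20.0%), and beside 1686 promoters with both marks (34.7%).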

How the data were processed

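Per the labels' protocols, CUT&RUN libraries of MOLM-13 cells were read as 150 bp paired ends. The submitters' processing notes name Trim Galore, Bowtie2, Picard, MACS2 and hg38, without versions or roles. There is 1 peak list per library. Peak scores deposited by the authors are whole numbers, none below 50. What the score measures is not given in the sources used here, so it was used for ranking and thresholds inside a list and nowhere else.

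Bases under peaks in each window were summed per library with Python 3.11.15 (numpy 2.4.6, pandas 2.3.3). A peak counted when it overlapped the window by at least 1 bp. Libraries are the replicates. Log2 ratios compare group means of covered bp, with the SD from the spread of log2 values within both groups, and tests are exact two-sided permutation tests. The interval sums and the calls were tested on simulated data. Longer or shorter means that both Corin lists lay on one side of both DMSO lists.

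The members, gene lists, motifs and tests were chosen with earlier results of these data known. Named were the 15 members with the most H3K27ac after Corin among those with it in both Corin lists, the 8 largest H3K4me2 differences up and 4 down among groups that do not overlap, and the 5 widest DMSO H3K4me3 peaks among members with no H3K27ac. Also named were the 2 members of each gene list with the most H3K27ac, and the 3 genes on each side of the rule's edge. GATA2, DUSP11, CD33, SPI1, FLT3, CSF1R and CD86 were chosen outside that rule. Of 19 libraries, 7 were not analysed.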

Additional observations from a re-analysis of the deposited data

How the results depend on the processing

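Of the members, 22.2% had H3K27ac in both Corin lists. With windows of 500 or 2000 bp, an overlap of 200 bp, starts of every basic transcript, 1 gene per overlapping group, or no DMSO H3K27ac within 5000 bp the share stayed between 20.4% and 23.04%. The count of 530 became 160 with lists cut to a matched number and members found again, 130 (5.43%) for the same members with the lists cut, and 865 of 3817 (22.7%) at a score of at least 100. Leaving out 1 library gave 801 to 1720, the highest without DMSO replicate 2 (of 3982 members) and 917 (of 3202) without DMSO replicate 1, because fewer lists then have to meet the rule.

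The H3K4me2 log2 ratio at members, 0.05, became 0.0002 in windows of 500 bp and -0.0050 at a matched number. It ran from -0.033 (without DMSO replicate 1) to 0.15 with 1 library left out. That of H3K4me3 ran from -0.023 (without DMSO replicate 1) to 0.10. The difference between members and promoters with both marks kept its sign under every alternative run. Members with longer H3K4me2, 482, numbered 250 in windows of 500 bp, 741 in windows of 2000 bp and 694 to 2111 with 1 library left out. Those with shorter H3K4me2, 176, numbered 220 in windows of 500 bp and 128 in windows of 2000 bp. They numbered 269 at a matched number, 363 at a score of at least 100 and 330 to 987 with 1 library left out. Without DMSO replicate 1 the shorter, 987, outnumbered the longer, 877. ZNF275 turned to 304.5 bp longer at a score of at least 100. Of the values at single genes, 202 stayed within the replicate spread and 40 moved further. All values with 1 library left out are among the 202. By this measure they could not move further, since the same libraries set the spread.

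Same-numbered Corin and DMSO libraries deviated together from their group means, with correlations of 0.234 for H3K27ac, 0.194 for H3K4me2 and 0.201 for H3K4me3 over 20007 promoters. What libraries of one number have in common is not labelled, and there are 2 pairs, so the libraries were not treated as paired. With the replicate block the H3K4me2 log2 ratio was 0.05 (exact permutation p = 1) and the difference between classes 0.11 (exact permutation p = 0.5, the smallest the block allows). Depth is unknown, so an absent peak is one not called rather than a mark shown to be absent.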
